A study of Mus musculus with 7 samples.

Results

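The genes described here are 40 mouse genes of glucose metabolism and of the response to low oxygen: 4 glucose and lactate transporters, 17 glycolysis enzymes including both lactate dehydrogenase subunits, 3 enzymes that set the level of fructose-2,6-bisphosphate, 5 genes of pyruvate entry into mitochondria, G6pdx, and 10 hypoxia genes. They were taken by gene symbol from a list of known pathway members, chosen with earlier results of these data known. Shares of the 40 genes set beside shares over all genes are therefore descriptions and not tests. All 40 were found among the 55367 genes of the count table. They passed the filter on low counts, which left 12623 genes for testing. The study asked how small extracellular vesicles (sEVs) from leukemic tissue act on CD8+ T cells. Vesicles were isolated from the spleens of Eμ-TCL1 mice, in which a B-cell-directed promoter and enhancer drive the human TCL1 oncogene and a disease like chronic lymphocytic leukemia develops (leukemia microenvironment, LME-sEVs), or from healthy spleens (HCME-sEVs). An LME-sEV preparation therefore holds vesicles from every cell of the leukemic spleen and not from leukemic B cells alone. CD8+ T cells from spleens of Foxp3 YFP/cre mice received LME-sEVs (3 libraries) or HCME-sEVs (4 libraries) for 48 h, and no library without vesicles was analysed here. Both groups thus share the Foxp3 YFP/cre background and vesicle exposure, and the study's methods describe culture of CD8+ T cells on anti-CD3 with IL2 and anti-CD28 also for both. The sources differ on group sizes, dose and isolation. The study's figure legend gives 4 LME-sEV and 3 HCME-sEV samples for 48 h, while the labels, followed here, give 3 and 4. The labels give FACS sorting and 100 μg/mL of vesicles for all libraries, while the methods describe bead isolation and dosing of CD8+ T cells by the vesicle amount of the respective spleen. If the dose differed between the groups, vesicle source and vesicle amount cannot be told apart in any fold change below. The methods give 8 to 10 weeks as the general age of the mice. Whether libraries came from separate cultures or animals is not given in the sources used here, so p-values measure the spread between these libraries, which may be technical.

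Glycolysis converts glucose to pyruvate in the cytosol, with ATP spent in a preparatory phase and regained in a payoff phase. Lactate dehydrogenase then turns pyruvate to lactate, which leaves the cell through monocarboxylate transporters, or pyruvate enters mitochondria through its carrier and the pyruvate dehydrogenase complex, which pyruvate dehydrogenase kinases inhibit. The transcription factor HIF-1, whose alpha subunit is marked for degradation by prolyl hydroxylases when oxygen is available, raises transcription of many of these genes, and T cells activated through their receptor take up more glucose and ferment much of it to lactate.

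The libraries held 3689831 to 5030522 counts of unique molecules, so that 3 counts corresponded to 0.582 to 0.807 CPM (each gene's count scaled to a common library total, after TMM normalisation). Each transcript is tagged near its 3′ end, so the CPM of different genes compares numbers of tags and not of bases. All 8 CD8 T cell markers were detected, with a summed level of 2143 to 2367 CPM with HCME-sEVs and 2386 to 2716 CPM with LME-sEVs, and 2 of the 8, Cd3e and Cd3g of the T-cell receptor complex, rose. Markers of other cell types were at lower levels. The 3 CD4 T cell markers summed to 0.964 to 1.60 CPM with HCME-sEVs and 1.35 to 1.36 CPM with LME-sEVs, with Foxp3 at 0 in the LME-sEV group and none of the 3 high enough to test. Markers of B and plasma cells summed to 36.1 to 43.6 and 45.2 to 57.8 CPM (of 10 genes 6 were tested and Cd74 rose, and Cd79a was at 0 with LME-sEVs), those of myeloid cells to 2.13 to 4.58 and 5.62 to 10.2 CPM (of 8 genes 1 was tested, Fcgr3, which did not pass, and the untested Itgam and Itgax were higher in all LME-sEV libraries), and those of basophils and mast cells to 5.54 to 31.7 and 21.1 to 39.3 CPM (of 6 genes 5 were tested, and Mcpt8 and Prg2 rose). Natural killer markers summed to 199 to 218 and 175 to 197 CPM (of 4 genes 2 were tested and 0 passed). Most of that sum was Eomes, which CD8 T cells also express, at 189 and 167 CPM. Klre1 was at 22.2 and 20.4 CPM, Klrb1c at 0.988 and 0.384 CPM and Ncr1 at 0.067 and 0 CPM. Erythroid and platelet markers summed to 72.0 to 176 and 152 to 199 CPM (of 8 genes 7 were tested, and Hba-a1, Pf4 and Ppbp rose). Beside these marker counts, 3.75% of all tested genes were called higher and 5.21% lower. The CD8 T cell, B-cell, myeloid and natural killer sums did not overlap between the groups, and their part in the results below was not tested.

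All 40 glycolysis and hypoxia genes were expressed over a wide range. With HCME-sEVs, 14 had a mean of at least 100 CPM, 22 lay between 10 and 100 CPM and 4 were under 10 CPM. Ldha, the lactate dehydrogenase subunit that dominates in activated lymphocytes, had the highest level with 1427 ± 75.3 CPM (SD, n = 4), followed by Aldoa with 736 ± 45.3 CPM, Pkm with 640.0 ± 35.2 CPM and Hif1a with 407 ± 33.6 CPM. Ldhb with 3.84 ± 0.49 CPM and Pfkfb4 with 1.72 ± 0.47 CPM were lowest. The median coefficient of variation among replicates was 9.09% with HCME-sEVs and 6.91% with LME-sEVs. In total the 40 genes made up 6050 to 6366 CPM with HCME-sEVs and 5939 to 6012 CPM with LME-sEVs.

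**Figure D1:**
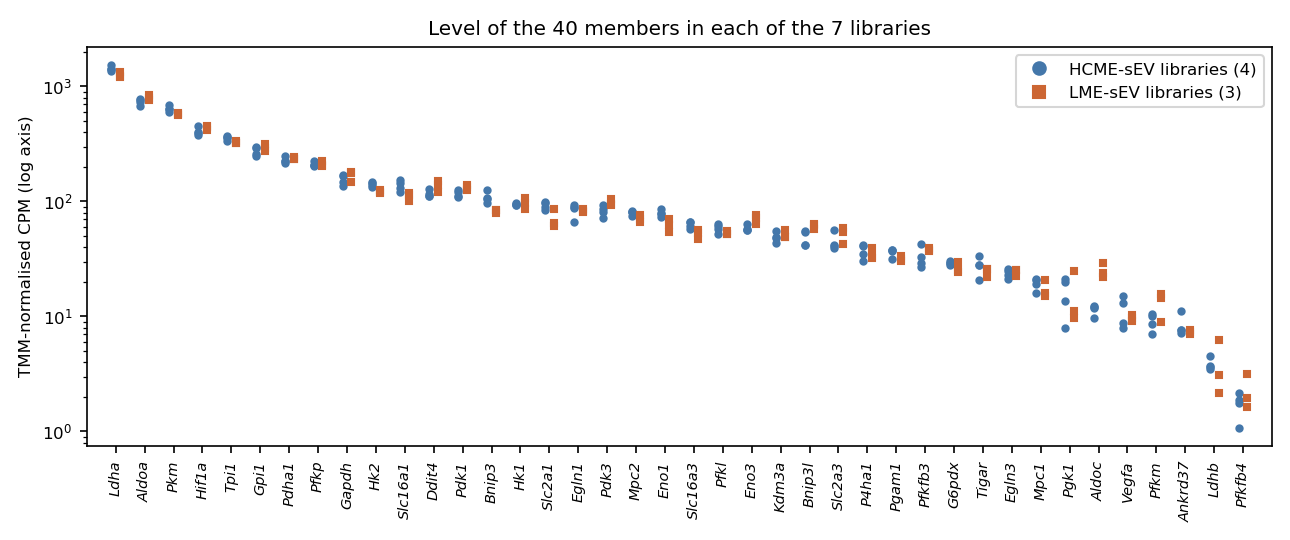
Level of the 40 genes in each library, in TMM-normalised CPM on a log axis, ordered by their mean in the 4 HCME-sEV libraries (circles), with the 3 LME-sEV libraries as squares. For 10 of the 40 genes the squares and circles do not overlap, and for the others they do at least in part. The squares of Aldoc, at 21.8 to 29.2 CPM, all lie above its circles.

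Fold changes of LME-sEV over HCME-sEV libraries were small for most of these genes. By the quasi-likelihood test of edgeR, with p-values adjusted over the 12623 genes by the Benjamini-Hochberg method (FDR), 5 of the 40 passed 0.05, which is 12.5%, while 8.96% of all genes tested passed. Among genes at or above the lower quartile of the 40 genes' mean level the share was 13.4%, close to that of the 40 genes. Aldoc rose, where 3.75% of all tested genes were called higher, and Bnip3, Slc2a1, Eno1 and Slc16a1 fell, where 5.21% of all tested genes were called lower. Only Aldoc also passed a log2 fold change of 1, a size that 1.28% of tested genes reached together with the FDR. The median log2 fold change of the 40 genes was 0.011 and that of all tested genes was 0.0095. The fold change was positive for 21 and negative for 19. It lay within 0.2 of 0 on the log2 scale for 25 genes, and the 95% interval lay within 1 of 0 for 38 genes and within 0.5 of 0 for 29. In bulk RNA of this kind, fewer cells with a transcript and less of it per cell cannot be told apart.

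**Figure D2:**
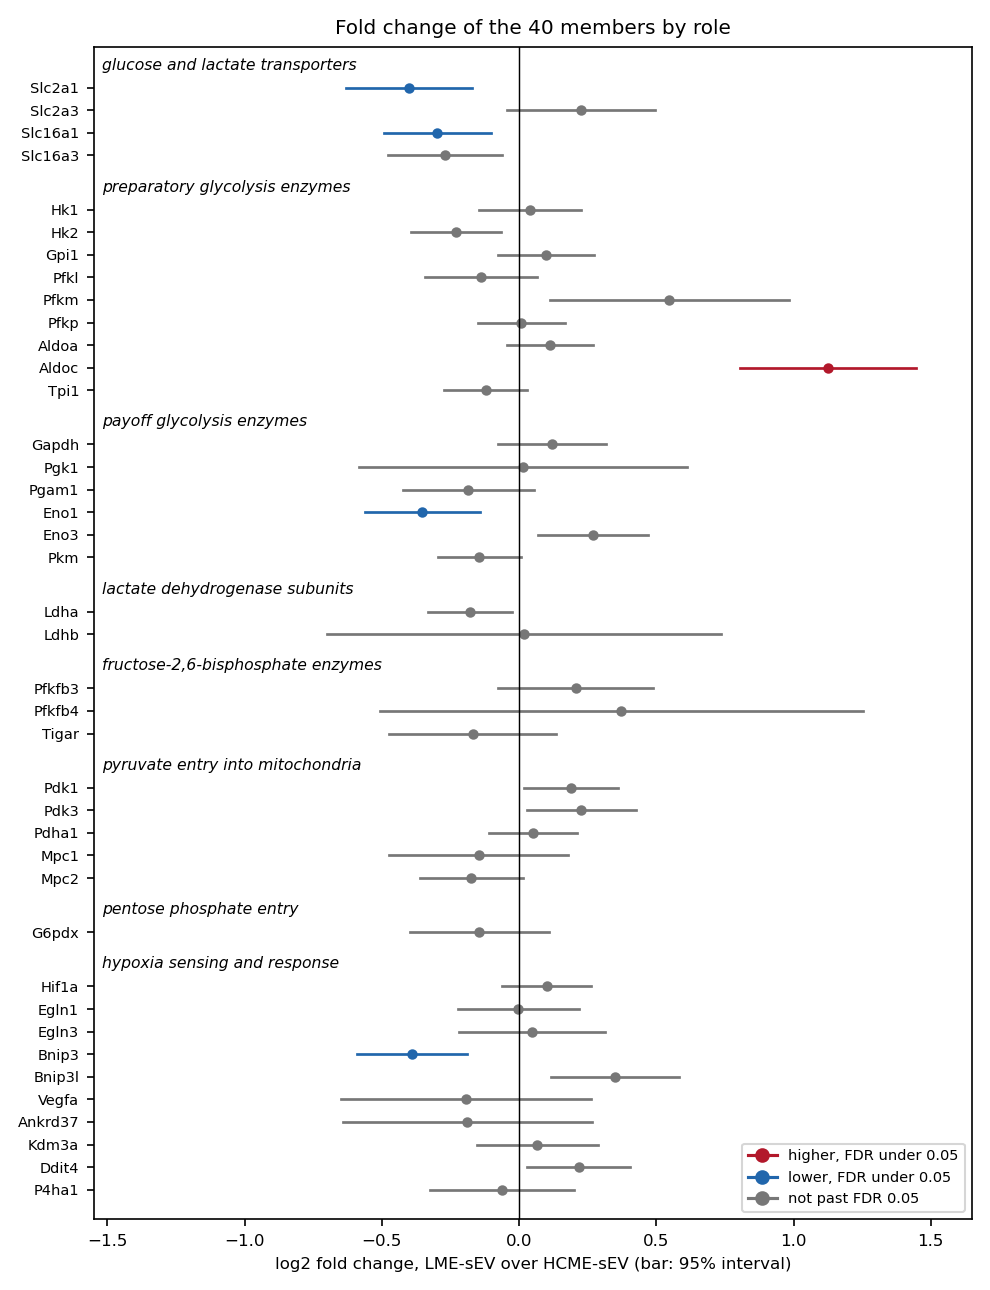
Log2 fold change (points) with 95% interval (bars) of each of the 40 genes, LME-sEV over HCME-sEV, grouped by role, with colour for genes past an FDR of 0.05. Aldoc stands apart at 1.12, the 4 lower genes lie between -0.40 and -0.30, and 35 genes are grey.

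The 5 genes that passed the test are shown first with the 250 bases before their RefSeq transcription start (GRCm38.p6), read 5′ to 3′ on the strand of the gene, since HIF is known to bind a core of the letters ACGTG or GCGTG. Where a gene had several RefSeq starts, the window nearest to the annotated gene start was taken. Capitals mark every ACGTG and GCGTG on either strand, so that the reverse complements CACGT and CACGC are marked too, and a CACGTG run is an ACGTG on both strands.
Aldoc, chr11:78322823-78323072, plus strand: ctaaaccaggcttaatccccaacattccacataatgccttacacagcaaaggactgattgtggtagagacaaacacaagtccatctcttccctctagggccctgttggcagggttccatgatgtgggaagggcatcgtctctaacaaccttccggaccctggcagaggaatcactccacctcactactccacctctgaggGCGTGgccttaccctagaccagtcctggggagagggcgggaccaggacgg
Bnip3, chr7:138909507-138909756, minus strand: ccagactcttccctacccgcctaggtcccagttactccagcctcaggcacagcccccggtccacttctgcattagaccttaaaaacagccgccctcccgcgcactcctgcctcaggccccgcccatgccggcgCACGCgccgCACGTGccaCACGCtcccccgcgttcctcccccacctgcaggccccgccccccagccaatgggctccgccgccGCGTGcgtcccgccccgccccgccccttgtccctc
Slc2a1, chr4:119108495-119108744, plus strand: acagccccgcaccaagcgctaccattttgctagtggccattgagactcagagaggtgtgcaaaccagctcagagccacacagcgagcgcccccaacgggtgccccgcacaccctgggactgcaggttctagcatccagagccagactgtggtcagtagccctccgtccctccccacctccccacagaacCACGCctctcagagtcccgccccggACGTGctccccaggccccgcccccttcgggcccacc
Eno1, chr4:150236458-150236707, plus strand: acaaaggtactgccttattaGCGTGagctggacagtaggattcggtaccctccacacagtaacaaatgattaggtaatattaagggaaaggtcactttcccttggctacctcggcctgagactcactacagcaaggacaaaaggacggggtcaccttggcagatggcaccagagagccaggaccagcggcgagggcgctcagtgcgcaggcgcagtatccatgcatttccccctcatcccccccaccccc
Slc16a1, chr3:104638414-104638663, plus strand: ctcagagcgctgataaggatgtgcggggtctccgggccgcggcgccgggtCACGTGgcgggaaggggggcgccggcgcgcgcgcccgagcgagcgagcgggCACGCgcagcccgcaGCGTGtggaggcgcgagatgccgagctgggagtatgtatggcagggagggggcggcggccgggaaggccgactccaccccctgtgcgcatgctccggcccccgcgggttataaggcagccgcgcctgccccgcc
The Bnip3 window held 5 matches, at 117, 108, 107, 99 and 35 bases before the start, and the Slc16a1 window 4, at 200, 199, 149 and 134 bases, each including 1 CACGTG run. Slc2a1 held 2 matches, at 61 and 36 bases, Aldoc 1 at 50 bases and Eno1 1 at 230 bases. The choice of start changes this for Eno1, whose other 2 windows, not shown, each held 2 matches, at 86 and 62 or at 113 and 89 bases, and the other Aldoc window held 1 at 39 bases. The windows of the genes that fell and of the gene that rose therefore both held the letters. Among all 32851 RefSeq windows of this length, 16.57% held ACGTG, 28.16% GCGTG and 38.6% either. Of the 55 windows found for 38 of the 40 genes, 41.82%, 58.18% and 78.18% did, and their median GC content of 62.8% was above the 52.4% of all windows. The part of base composition in the motif shares was not tested. CACGTG was in 10.91% of these windows and in 6.021% of all. A match is a description of letters and not evidence of binding.

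**Figure D3:**
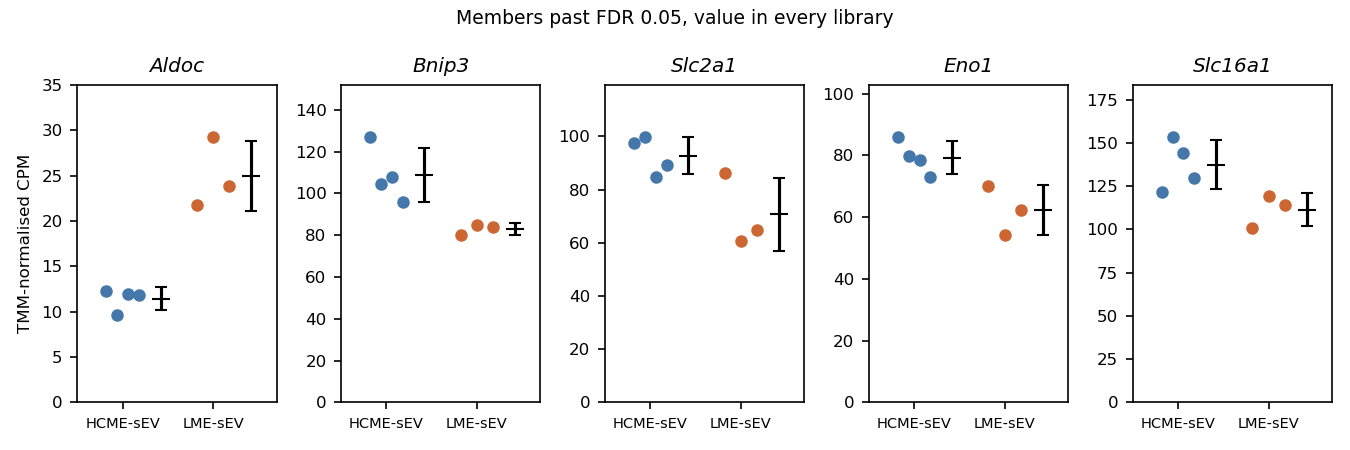
TMM-normalised CPM (linear axis from 0) of the 5 genes past an FDR of 0.05 in each of the 4 HCME-sEV (blue) and 3 LME-sEV (orange) libraries, with mean and SD as black bars. The groups are separate for Aldoc, Bnip3, Eno1 and Slc16a1, while for Slc2a1 the LME-sEV library 1, at 86.4 CPM, lies within the HCME-sEV values.

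Of the 4 glucose and lactate transporters, Slc2a1 and Slc16a1 fell, and Slc16a3 and Slc2a3 did not pass. Slc2a1 encodes the glucose transporter GLUT1 (ENSMUSG00000028645.11, GRCm38 chromosome 4, 119108711 to 119137983, plus strand). Its level was 97.3, 99.6, 84.8 and 89.2 CPM in HCME-sEV libraries 1 to 4 and 86.4, 60.7 and 65.0 CPM in LME-sEV libraries 1 to 3. LME-sEV libraries 2 and 3 were below every HCME-sEV library, and LME-sEV library 1 was not, so the groups overlapped. Slc2a1 fell by 0.40 on the log2 scale (SE 0.11, 95% interval -0.63 to -0.17, FDR 0.0263 by edgeR's quasi-likelihood test). The call was lost without HCME-sEV library 2 (FDR 0.0843), LME-sEV library 2 (FDR 0.185) or LME-sEV library 3 (FDR 0.150). An exon of Gm12868 lies opposite to Slc2a1, and the strand setting of the counting is not given in the sources used here. The study reported more GLUT1 and PHGDH protein with LME-sEVs on immunoblots after a longer treatment. After that treatment it also reported increased glucose consumption and lactate release. The share of glucose that reached nucleotides through the pentose phosphate pathway was reported as reduced. These are different measures and a different time from the RNA here.

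Slc2a3, which encodes the high-affinity glucose transporter GLUT3, gave 44.7 ± 7.99 CPM with HCME-sEVs and 51.8 ± 8.06 CPM with LME-sEVs, a log2 fold change of 0.23 that did not pass (FDR 0.319, edgeR). Slc2a1 made up 67.5% ± 5.24 (SD, n = 4) of the summed counts of both glucose transporters with HCME-sEVs and 57.5% ± 8.15 (n = 3) with LME-sEVs, and the groups overlapped, with 66.9% in LME-sEV library 1.

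Slc16a1 encodes MCT1, a proton-coupled carrier of lactate and pyruvate (ENSMUSG00000032902.1, chromosome 3, 104638668 to 104658462, plus strand). It measured 122, 153, 144 and 129.9 CPM in HCME-sEV libraries 1 to 4, and 101, 119 and 114 CPM in LME-sEV libraries 1 to 3. All 3 LME-sEV libraries were below the lowest HCME-sEV library, although LME-sEV library 2 was only just below it. The gene fell by 0.30 on the log2 scale (SE 0.093, FDR 0.0496, edgeR's quasi-likelihood test), just inside the threshold. It stayed past the threshold without HCME-sEV library 1 and lost the call without any of the other 6 libraries, with FDR from 0.0605 to 0.222. It also lost the call in 6 of the 9 other settings, for example with DESeq2 (FDR 0.0548).

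Slc16a3 encodes MCT4, the lactate exporter of strongly glycolytic cells (chromosome 11, 120948480 to 120960868, plus strand). Its values of 66.3, 66.4, 57.9 and 61.5 CPM with HCME-sEVs and 56.5, 47.0 and 53.5 CPM with LME-sEVs did not overlap. The log2 fold change was -0.27 (SE 0.10, 95% interval -0.48 to -0.063, FDR 0.0995, edgeR), which did not pass. Slc16a1 held 68.4% ± 2.84 of the counts of both carriers with HCME-sEVs and 68.0% ± 3.81 with LME-sEVs. Together the 4 transporters summed to 323 to 360 CPM in HCME-sEV libraries and 281 to 291 CPM in LME-sEV libraries, without overlap, and their median log2 fold change was -0.28, with 2 of 4 called lower against 5.21% of all tested genes, a count that rests on very few genes.

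The preparatory enzymes of glycolysis, which phosphorylate glucose and split it, had a median log2 fold change of 0.039 over 9 genes, of which 1 rose and 0 fell (3.75% and 5.21% over all tested genes). Aldoc encodes aldolase C, the brain-type isoform of the enzyme that splits fructose-1,6-bisphosphate (ENSMUSG00000017390.15, chromosome 11, 78322968 to 78327781, plus strand). Its level was 12.3, 9.63, 12.0 and 11.9 CPM in HCME-sEV libraries 1 to 4 and 21.8, 29.2 and 23.8 CPM in LME-sEV libraries 1 to 3. Every LME-sEV library was thus far above every HCME-sEV library. The rise was 1.12 on the log2 scale (SE 0.15, 95% interval 0.80 to 1.45), or 2.18-fold, with an FDR of 1.88e-04 in edgeR's quasi-likelihood test, at rank 29 of all genes by p. It passed the FDR in all 7 fits that left out 1 library, with log2 fold changes of 0.997 to 1.21, and in all 9 other settings, and without LME-sEV library 2 it was just under a log2 fold change of 1. No near-identical gene or overlapping exon was found for Aldoc.

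The main aldolase of these cells was Aldoa, with 736 ± 45.3 and 797 ± 45.8 CPM (log2 fold change 0.11, FDR 0.397, edgeR). Aldoc therefore made up 1.53% ± 0.19 of the counts of both aldolases with HCME-sEVs and 3.03% ± 0.33 with LME-sEVs, without overlap. This pair was added after its values were seen. Aldoa has 2 near-identical genes, so these shares are uncertain where reads match several genes.

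Hexokinases trap glucose in the cell as glucose-6-phosphate. Hk2, the inducible isoform, measured 147, 146, 134 and 139 CPM with HCME-sEVs and 125, 120.7 and 117 CPM with LME-sEVs. The groups did not overlap, and the log2 fold change of -0.23 (SE 0.079) had an FDR of 0.0764 (edgeR). Hk1, the constitutive isoform, gave 94.0 ± 1.41 and 96.3 ± 10.5 CPM. Hk2 held 60.1% ± 0.83 of the counts of both with HCME-sEVs and 55.7% ± 3.46 with LME-sEVs, and LME-sEV library 1 with 59.4% lay among the HCME-sEV libraries.

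Pfkp, the platelet-type phosphofructokinase and the main isoform here, had 225, 205, 205 and 207 CPM with HCME-sEVs and 205, 206 and 224 CPM with LME-sEVs. The values of both groups covered the same range. Its log2 fold change was 0.0086, with a 95% interval of -0.15 to 0.17 (FDR 0.967, edgeR). Pfkm, the muscle type, had the second largest fold change of the 40 genes, 0.55 (SE 0.21, FDR 0.113, edgeR), from 9.03 ± 1.57 to 13.0 ± 3.62 CPM with overlapping groups, and passed only without LME-sEV library 1 (FDR 0.0325). Pfkl, the liver type, stood at 58.3 ± 4.91 and 53.0 ± 1.60 CPM (FDR 0.436, edgeR). Pfkp made up 75.8% ± 1.29 and 76.2% ± 1.52 of the counts of the 3 isoforms.

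Gpi1, which isomerises glucose-6-phosphate (log2 fold change 0.10), and Tpi1, which interconverts the triose phosphates (-0.12), did not pass either (FDR 0.534 and 0.338, edgeR).

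In the payoff phase, 1 of 6 enzymes fell and 0 rose (5.21% and 3.75% over all tested genes), with a median log2 fold change of -0.066. Eno1 encodes alpha-enolase, which makes phosphoenolpyruvate (ENSMUSG00000063524.13, chromosome 4, 150236721 to 150248879, plus strand). Its level was 85.8, 79.8, 78.4 and 72.9 CPM in HCME-sEV libraries 1 to 4 and 70.2, 54.2 and 62.2 CPM in LME-sEV libraries 1 to 3. All LME-sEV libraries were lower than all HCME-sEV libraries, with the closest pair at 72.9 and 70.2 CPM. Eno1 fell by 0.35 on the log2 scale (SE 0.10, 95% interval -0.56 to -0.14, FDR 0.0326, edgeR's quasi-likelihood test). The call was lost without HCME-sEV library 1 (FDR 0.0663), HCME-sEV library 2 (FDR 0.0773), LME-sEV library 2 (FDR 0.209) or LME-sEV library 3 (FDR 0.114). There are 5 annotated genes with a near-identical 3′ end, whose counts made up 1.18% of the sum with Eno1, and the call held with those counts added. Reads dropped for matching several genes would be in neither count, so the sum cannot show such a loss.

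Eno3, the muscle-type enolase, was at 58.3 ± 3.28 CPM with HCME-sEVs and 70.0 ± 6.58 CPM with LME-sEVs, with overlapping groups, and did not pass (log2 fold change 0.27, FDR 0.0888, edgeR). Eno1 took 57.6, 58.8, 57.9 and 56.2% of the enolase counts in HCME-sEV libraries 1 to 4 and 52.7, 43.3 and 45.0% in LME-sEV libraries 1 to 3. The means were 57.6% ± 1.07 and 47.0% ± 5.03, and the groups did not overlap. As with the aldolases, this pair was added after its values were seen, so the shift is given without a test. Near-identical genes were found for Eno1 and not for Eno3. The shares are therefore uncertain where reads with several matches were dropped or split.

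**Figure D4:**
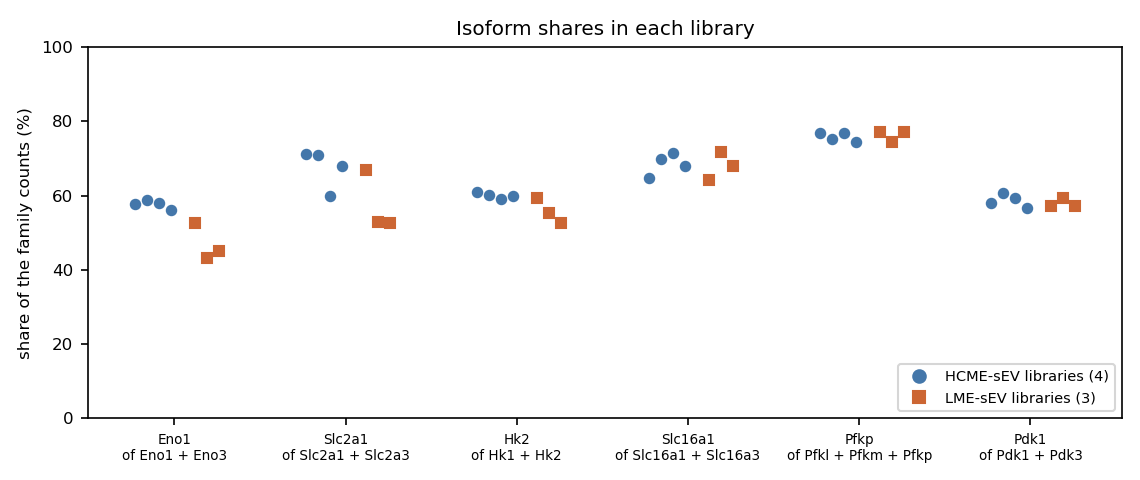
Share of the summed counts of an isoform family taken by the named gene in each HCME-sEV (circles, n = 4) and LME-sEV (squares, n = 3) library, in percent. Eno1 lies at 56.2 to 58.8% with HCME-sEVs and at 43.3 to 52.7% with LME-sEVs, the Slc2a1 and Hk2 groups overlap, and the shares of Slc16a1, Pfkp and Pdk1 cover the same ranges in both groups. The Eno1 share is uncertain where reads match several genes.

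Pkm, which encodes pyruvate kinase, was lower in value in every LME-sEV library (564 to 591 CPM) than in every HCME-sEV library (603 to 687 CPM), at a log2 fold change of -0.15 that did not pass (FDR 0.240, edgeR). Pgam1, the phosphoglycerate mutase, gave -0.19 (FDR 0.359) and Gapdh 0.12 (FDR 0.495). Gapdh had 87 near-identical genes, mostly pseudogenes, which held 2.98% of the summed counts, so its level of 155 ± 15.8 CPM with HCME-sEVs is uncertain where the counting could split reads. Pgk1, the first ATP-forming enzyme of the pathway, varied widely within groups, from 7.95 to 21.3 CPM with HCME-sEVs and from 9.69 to 24.6 CPM with LME-sEVs. With a 95% interval of -0.58 to 0.61 for its log2 fold change, a moderate change of Pgk1 was not detectable here.

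Lactate dehydrogenase was almost entirely the Ldha subunit, with 99.7% of the counts of both subunits in each group. Ldha measured 1530, 1418, 1410 and 1349 CPM with HCME-sEVs and 1333, 1229 and 1218 CPM with LME-sEVs. The LME-sEV libraries were all lower, with the nearest pair at 1349 and 1333 CPM, and the log2 fold change of -0.18 (SE 0.074) had an FDR of 0.142 (edgeR). Ldhb stood at 3.84 ± 0.49 and 3.85 ± 2.17 CPM. Over the 17 glycolysis enzymes as a whole, the median log2 fold change was 0.013, with 1 that rose and 1 that fell, and their sum was 4142 to 4556 CPM with HCME-sEVs and 4065 to 4170 CPM with LME-sEVs.

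Fructose-2,6-bisphosphate activates phosphofructokinase. Pfkfb3, which makes it, had a log2 fold change of 0.21 (FDR 0.396), Pfkfb4, which makes and degrades it, 0.37 (FDR 0.661, at 1.72 and 2.23 CPM), and Tigar, a phosphatase that removes it, -0.17 (FDR 0.538), and none passed in edgeR's test. At the entry of the pentose phosphate pathway, G6pdx, glucose-6-phosphate dehydrogenase, measured 29.1 ± 1.15 and 26.5 ± 2.95 CPM (log2 fold change -0.14, FDR 0.523, edgeR).

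Pyruvate entry into mitochondria held 5 genes, of which 0 passed. Pdk1, a kinase that inhibits pyruvate dehydrogenase and a known HIF target, lay at 110 to 125 CPM with HCME-sEVs and 127 to 139.6 CPM with LME-sEVs. These groups did not overlap, and the log2 fold change of 0.19 had an FDR of 0.171 (edgeR). Pdk3, another such kinase, gave 0.23 (FDR 0.154), and Pdha1, the E1 subunit that the kinases act on, 0.051 (FDR 0.759). Of the mitochondrial pyruvate carrier subunits, Mpc1 gave -0.15 (FDR 0.635) and Mpc2 -0.17 (FDR 0.258). The sum of the 5 genes was 507 to 545 CPM with HCME-sEVs and 549 to 564 CPM with LME-sEVs, without overlap.

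Among the 10 genes of hypoxia sensing and response, 1 fell and 0 rose (5.21% and 3.75% over all tested genes), and the median log2 fold change was 0.022. Hif1a encodes the oxygen-regulated subunit of HIF-1, which is controlled mainly at the protein level. Its transcript was at 379.9, 399.6, 456 and 392 CPM in HCME-sEV libraries 1 to 4 and at 417, 439 and 452 CPM in LME-sEV libraries 1 to 3. HCME-sEV library 3 was the highest of all 7, so the groups overlapped. The log2 fold change was 0.10 (95% interval -0.062 to 0.26, FDR 0.487, edgeR). Egln1 and Egln3, prolyl hydroxylases that mark HIF for degradation, gave -0.0029 and 0.048 (FDR 0.991 and 0.872).

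Bnip3 encodes a mitochondrial outer membrane protein of mitophagy and a known HIF target (ENSMUSG00000078566.8, chromosome 7, 138890836 to 138909519, minus strand). It measured 127, 104, 108 and 95.9 CPM in HCME-sEV libraries 1 to 4 and 79.9, 84.9 and 84.0 CPM in LME-sEV libraries 1 to 3. The 3 LME-sEV values lay close together and below all HCME-sEV values, among which library 1 was the highest. Bnip3 fell by 0.39 on the log2 scale (SE 0.096, 95% interval -0.59 to -0.19, FDR 0.0141, edgeR's quasi-likelihood test). It passed in all 9 other settings, but leaving out LME-sEV library 1, 2 or 3 ended the call (FDR 0.0609, 0.0592 and 0.0614). The 4 near-identical genes of Bnip3 held 0 counts, which does not show whether reads with several matches were dropped. An exon of Gm45507 lies opposite to Bnip3.

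Its paralog Bnip3l, also called Nix and also a mitophagy receptor, lay on the other side. Its values were 41.9, 53.7, 55.7 and 42.1 CPM with HCME-sEVs and 57.6, 64.0 and 62.6 CPM with LME-sEVs. Every LME-sEV library was above every HCME-sEV library, though HCME-sEV library 3, at 55.7 CPM, came close to LME-sEV library 1, at 57.6 CPM. The log2 fold change of 0.35 (SE 0.11) had an FDR of 0.0543 in edgeR's test, the lowest of the 35 genes that did not pass, and it was past 0.05 in 5 of the 9 other settings. The difference between the fold changes of Bnip3 and Bnip3l was not tested.

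The other hypoxia genes did not pass. Ddit4, an inhibitor of mTORC1 signalling, was at 117 ± 8.33 CPM with HCME-sEVs and 136 ± 15.3 CPM with LME-sEVs (log2 fold change 0.22, FDR 0.152, edgeR). Kdm3a, a histone demethylase, gave 0.066 (FDR 0.772) and P4ha1, a collagen prolyl hydroxylase subunit, -0.062 (FDR 0.8293). Vegfa, the angiogenic growth factor, gave -0.19 (95% interval -0.65 to 0.26) and Ankrd37 -0.19 (95% interval -0.64 to 0.26), at group means of 7.33 to 11.2 CPM.

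Counted by separation of the groups, 10 of the 40 genes had no overlap between LME-sEV and HCME-sEV libraries, which is 25.0%, while 20.3% of all tested genes had none. The LME-sEV libraries were above for Aldoc, Pdk1 and Bnip3l, where the share over all genes was 9.49%, and below for Slc16a1, Slc16a3, Hk2, Eno1, Pkm, Ldha and Bnip3, where it was 10.8%. Of these 10 genes, 6 did not pass the FDR.

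Genes of the same pathways outside the 40 were counted from lists compiled by role, with earlier results of these data known. Over all tested genes, 3.75% were called higher and 5.21% lower, and each list holds few tested genes. Of 18 other transport genes 9 were measured well enough to test, and 1 rose, Emb, which encodes embigin, a partner protein of monocarboxylate transporters. It rose from 239.9 ± 18.3 to 334 ± 10.04 CPM, a log2 fold change of 0.48 (FDR 6.91e-04, edgeR), with all LME-sEV libraries above. Of 28 other glycolysis and gluconeogenesis genes 13 were tested, and Pck2, mitochondrial phosphoenolpyruvate carboxykinase, rose (log2 fold change 0.34, FDR 0.0410) while 0 fell. Of 9 other genes of the pyruvate dehydrogenase complex 8 were tested and 0 passed. Pdpr, a regulatory subunit of its phosphatase, gave 17.0 ± 0.87 and 20.4 ± 2.28 CPM (log2 fold change 0.25, FDR 0.304), with all LME-sEV libraries above. Pdk2, another pyruvate dehydrogenase kinase, named after its values were seen, also lay above in all LME-sEV libraries. Its counts were low, 4 in each HCME-sEV library and 13, 10 and 10 in LME-sEV libraries 1 to 3 (log2 fold change 1.31, FDR 0.0702). In this list 2 genes lay above without overlap and 0 below, against 9.49% and 10.8% of all tested genes. Genes above and below without overlap were 2 and 2 for transport and 1 and 1 for glycolysis. They were 1 and 3 for the pentose phosphate pathway and 3 and 2 for hypoxia.

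In the pentose phosphate pathway 9 of 10 genes other than G6pdx were tested, and 2 fell while 0 rose (5.21% and 3.75% over all tested genes). Tkt, transketolase of the non-oxidative branch, fell by 0.37 on the log2 scale from 223 ± 19.9 to 173 ± 11.9 CPM (FDR 0.0110, edgeR). Pgd, the second dehydrogenase of the oxidative branch, fell by 0.30 from 168 ± 14.3 to 137 ± 9.39 CPM (FDR 0.0365). Of 32 other hypoxia genes 26 were tested, of which 2 rose and 1 fell (3.75% and 5.21% over all tested genes). Rora, a nuclear receptor that the study itself had named as increased at 48 h, rose by 1.01 (FDR 1.58e-04, edgeR). Mxi1, a repressor that competes with MYC for MAX, rose by 0.56 (FDR 0.0255). Nampt, the rate-limiting enzyme of NAD salvage, fell by 0.36 (FDR 0.00842).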

How the data were processed

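RNA of CD8+ T cells treated for 48 h with HCME-sEVs (4 libraries) or LME-sEVs (3 libraries) was sequenced from transcript 3′ ends with molecular identifiers. The authors deposited raw counts per gene. Per the submitters' processing notes the tools were FastQC, cutadapt 2.10, STAR 2.5.3a, UMI-tools 1.0.0 and featureCounts of Subread 2.0.0, on GRCm38. The annotation release, the strand setting and the treatment of reads with several matches are not given in the sources used here. Groups and replicate numbers were taken from the sample labels.

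Counts were analysed in R 4.3.3 with edgeR 4.0.16: TMM factors, a filter at a mean count of 5 over the libraries (12623 of 55367 genes kept), the quasi-likelihood test and Benjamini-Hochberg adjustment over all genes tested. Levels are TMM-normalised CPM without a pseudocount, and errors are SDs over libraries. An FDR under 0.05 was a call. The 40 genes and all gene lists were chosen with earlier results of these data known. Values in every library were given for genes past the FDR, for Slc2a1, Slc16a3 and Pfkp, whose proteins the study examined, and for Hif1a. Values of Hk2, Ldha and Bnip3l in every library and of the enolase and aldolase shares were chosen after they were seen. Of the other pathway genes, at most 3 per list with the smallest FDR under 0.05 were named, and Pdpr. Pdk2 was named after its values were seen. Promoter windows were taken for the called genes.

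Alternatives were the size factors of DESeq2 (version 1.42.0), library size only, other filters, DESeq2, limma-voom (limma 3.58.1), the replicate number as a block, each library left out, and near-identical genes summed with the gene. Genes were near-identical where BLAST 2.17.0 found at least 200 of the last 300 bases of a transcript at 95% identity or more in the GENCODE transcripts of GRCm38, which applied to 10 of the 40 genes, and 16 shared exon bases with another gene. No pair of replicates differed by only sampling noise (chi-square per degree of freedom from 2.19 to 6.66). Pairs with HCME-sEV library 1 had the largest values, 4.54 to 6.66, and the other HCME-sEV pairs had 2.19 to 3.96. On simulated counts for the same design (12433 genes), 88.4% of genes changed by 1.5 and 49.5% of genes changed by 0.5 on the log2 scale were found, with 5 false calls.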

Additional observations from a re-analysis of the deposited data

Results flagged for a closer look

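The levels were examined for a single HCME-sEV library far from the other 3 with Dixon's ratio, the gap to the nearest library divided by the range, against its 95% critical value for 4 libraries. Of 55 gene levels, group sums and isoform shares examined, 7 were past it, where chance gives about 1 in 20, or 2.75. The ratio was 0.834 for Slc2a3 (library 3 higher), 0.878 for Pfkp (library 1 higher), 0.844 for Aldoc (library 2 lower), 0.881 for Pgam1 (library 4 lower), 0.849 for Eno3 (library 1 higher), 0.855 for Mpc2 (library 4 lower) and 0.886 for Ankrd37 (library 3 higher). The 7 lay in all 4 libraries and in both directions. The group of 3 LME-sEV libraries was too small for this ratio. Without HCME-sEV library 2, whose value of 9.63 CPM was the low one, Aldoc still passed the FDR.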

How the results depend on the processing

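The count of genes that rose, 1 with TMM factors, was 3 with library size only, where Eno3 and Bnip3l joined Aldoc. It was 2 without a filter, with at least 5 counts in every library, with filterByExpr and with limma-voom, where Bnip3l joined. The count that fell, 4, was 2 with library size only, where Slc16a1 and Eno1 were lost (that scaling moved the median of all genes from 0.0095 to 0.055), and 3 or 4 elsewhere except with a library left out. Leaving out 1 library at a time gave 1 to 2 genes that rose, 0 to 3 that fell and 0 to 1 beyond a log2 fold change of 1. The 0 that fell were found without LME-sEV library 2 or 3, and 1 was found without HCME-sEV library 2. Those fits have fewer libraries, and the calls over all genes also went from 1131 to 391 and 458 without LME-sEV libraries 2 and 3. Aldoc passed the FDR in all 16 fits. No call changed sign. Over all settings the medians of the 3 gene groups ranged from -0.046 to 0.094 for glycolysis enzymes, from -0.045 to 0.067 for hypoxia genes and from -0.30 to -0.24 for transporters, so the first 2 have no settled sign. The isoform shares come from raw counts, which the normalisation, filters and tests leave unchanged, so these settings could not test them. With the replicate block, 2 genes rose (Pdk3 joined, log2 fold change 0.29, FDR 0.0349) and 1454 genes of all were called. Deviations of same-numbered libraries correlated weakly and positively (r of 0.072, 0.15 and 0.027). Between different numbers r ranged from -0.21 to 0.080. The sources used here do not say what a number marks, so the numbers were not taken as pairs. Whether they mark pairs is not known. Summing near-identical genes, an alternative chosen after seeing the data, changed no call. It cannot restore reads that the counting may have dropped for matching several genes. At this depth a gene near 2 CPM, such as Pfkfb4, had a 95% interval from -0.51 to 1.25.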
